A study of Mus musculus with 6 samples.

Results

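The genes described here are 6 genes of the NF-kB inflammatory response: Vcam1, Nfkb1, Traf1, Ptgs2, Il1a and Il1b. They were taken by symbol from a table of 16383 transcript clusters on 6 arrays. Each of 5 of them had 1 cluster annotated with that gene alone, among 7659 genes with a value, and Nfkb1 was not analysed here. The gene choice used no measured value of these arrays in its rule, although earlier results of the same data were known when it was made.

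The arrays hold total RNA of Melan-a, a line of immortal mouse melanocytes that make pigment, derived from the C57BL/6 strain. Cells were transfected with an siRNA against Dicer (siDicer, 3 arrays) or with a control siRNA (siScr, 3 arrays), and replicates 1, 2 and 3 of both groups came from passages 47, 54 and 56. All cells of both groups grew in medium with serum and 200 nM of the phorbol ester TPA and received 50 pmol of siRNA by lipid transfection helped by magnetic particles. The titles put the harvest 48 h after transfection, whereas the treatment protocol describes new medium after 6 h and lysis 24 h later. Dicer1 itself was not analysed here, so the knockdown could not be checked. As a check of the cell type, 3 of 15 melanocyte markers had a value, and their mean log2 signal was 11.10 to 11.44 in siDicer and 11.24 to 11.61 in siScr.

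NF-kB is a family of transcription factors held inactive in the cytoplasm until receptors for interleukin-1, tumour necrosis factor or microbial products activate the kinases that release it. It then switches on cytokines, adhesion molecules and enzymes of inflammation, and it also induces inhibitors that end the response. Phorbol esters such as TPA activate protein kinase C, which is one route to NF-kB. Melanocytes are known to respond to interleukin-1 and tumour necrosis factor. Vcam1 is a cell surface adhesion molecule that binds integrin alpha 4 beta 1 of leukocytes, and in human endothelial cells its transcript is a known target of miR-126. Dicer makes mature microRNAs by cutting their hairpins, so the mature mouse sequence of the 3′ arm is shown here with its seed, bases 2 to 8, in capitals (RefSeq, GRCm38.p6, chr2:26591402-26591423, plus strand).
mmu-miR-126a-3p: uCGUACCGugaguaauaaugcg

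Mir126a itself was not analysed here. The gene Mir126b, whose hairpin overlaps that of Mir126a on the other strand, had log2 signals of 3.22, 2.83 and 3.04 in siDicer at passages 47, 54 and 56 and of 3.13, 3.01 and 3.15 in siScr. These values lie under 4.15, the 30th percentile of the mean signals of all genes, below which a gene was left out as dim. Array probes of a microRNA gene can read precursors and host transcripts, so these signals do not measure the mature microRNA. The part of miR-126 in the Vcam1 levels was not tested.

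Vcam1 was lower in siDicer than in siScr by nearly the same amount at each passage. Its log2 signal (transcript cluster TC0300002802.mm.1, chromosome 3) was 6.34, 6.99 and 6.51 in siDicer at passages 47, 54 and 56, and 6.69, 7.35 and 6.91 in siScr. The siDicer array was the lower of the pair at every passage, but the groups overlapped, because the siDicer array of passage 54 lay above the siScr arrays of passages 47 and 56. The differences, siDicer minus siScr, were -0.35, -0.36 and -0.40 on the log2 scale at passages 47, 54 and 56. Their SD was 0.026, while the SD within a group was 0.34 in siDicer and 0.33 in siScr.

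Vcam1 averaged a log2 signal of 6.61 ± 0.34 in siDicer cells and 6.98 ± 0.33 in siScr cells (SD, n = 3). The difference of -0.37 is a 1.29-fold lower signal. When 1 array was left out of the fit with no block, it was -0.56 with siDicer replicate 2 dropped. It was -0.23 with siDicer replicate 1 dropped and -0.19 with siScr replicate 2 dropped. Dropping 1 array leaves its passage in 1 group only, so these values also take in differences between passages. With array weights the difference was -0.20. Over all 6 arrays without regard to passage the difference of -0.37 did not pass (standard error 0.20, limma, adjusted p = 0.688). With passage as a block, the fit that compares arrays of the same passage, Vcam1 fell by 0.37 ± 0.058 (standard error, limma, adjusted p = 0.033). In that fit 93 of 5361 tested genes passed, or 1.73%, and 32 of them were lower in siDicer, or 0.597%. The count of 93 was 5, 19 and 153 without passages 47, 54 and 56, and 22 with dim genes kept in. Without the block 1 gene passed, or 0.0187%, and 0 of the 3 tested members did. A gene lower in siDicer at all 3 passages was common, at 20% of tested genes.

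The Vcam1 call rested on few arrays. With passage as a block the limma adjusted p was 0.193 without passage 47, 0.137 without passage 54, 0.043 without passage 56 and 0.0552 when dim genes were kept in, while the difference stayed between -0.35 and -0.38. An exact permutation test of the 3 against 3 arrays gave a two-sided p of 0.3, but the smallest p that its 10 splits allow is 0.1, so it could not pass 0.05 and says nothing about the call.

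**Figure D1:**
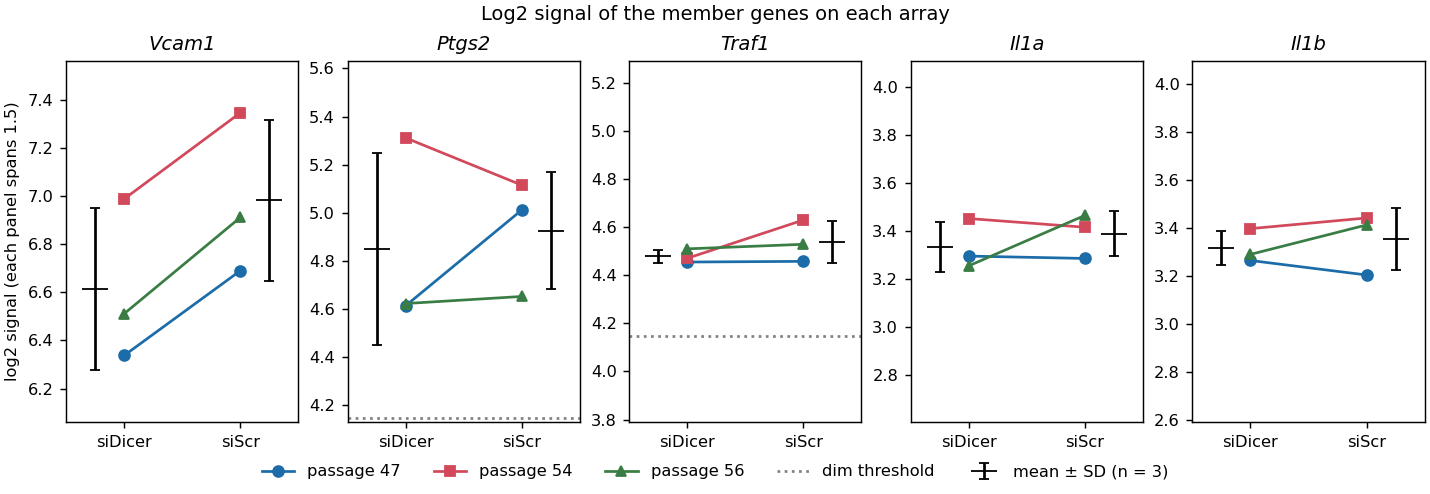
Log2 signal (vertical axis) of Vcam1, Ptgs2, Traf1, Il1a and Il1b on the siDicer and siScr arrays, with arrays of the same passage joined by a line, the mean ± SD of each group beside them (n = 3) and the dim threshold dotted where it falls in a panel. Each panel spans 1.5 log2 units around its own gene. The 3 Vcam1 lines run parallel, from 6.34, 6.99 and 6.51 in siDicer to 6.69, 7.35 and 6.91 in siScr, and those of Ptgs2 cross.

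Ptgs2, the inducible cyclooxygenase that starts prostaglandin synthesis, differed between passages in direction. Its log2 signal (TC0100001338.mm.1, chromosome 1) was 4.61, 5.31 and 4.62 in siDicer at passages 47, 54 and 56, and 5.01, 5.12 and 4.65 in siScr. The siDicer array was lower by 0.40 at passage 47, higher by 0.20 at passage 54 and lower by 0.029 at passage 56. It averaged 4.85 ± 0.40 in siDicer cells and 4.93 ± 0.24 in siScr cells (SD, n = 3), and the difference of -0.077 did not pass (standard error 0.20, limma, adjusted p = 0.958, and adjusted p = 0.82 with passage as a block). This difference turned positive with array weights, at 0.11, and when 1 array was dropped, at 0.041 for siDicer replicate 1, 0.036 for siDicer replicate 3 and 0.017 for siScr replicate 2.

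The promoter of Ptgs2 is shown because C/EBP and NF-kB factors are known to act on it and because Ptgs2 had, after Vcam1, the widest range over the arrays among the members, 0.70 against 1.01 log2 units. The 250 bases before its start are those of RefSeq (GRCm38.p6, chr1:150099781-150100030, plus strand), and the capitals mark the matches to the C/EBP motif TTNNGNAA, which was searched on both strands.
Ptgs2 promoter: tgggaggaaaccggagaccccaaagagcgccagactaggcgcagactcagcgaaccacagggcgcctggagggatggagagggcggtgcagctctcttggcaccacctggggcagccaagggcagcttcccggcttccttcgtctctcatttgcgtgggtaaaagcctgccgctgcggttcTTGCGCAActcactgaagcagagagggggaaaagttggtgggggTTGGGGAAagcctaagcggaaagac

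The 2 matches begin 69 and 25 bases before the start. This motif was held by 36.8% of the 32851 RefSeq promoters in the same window. The NF-kB consensus of 10 letters was matched in 0 of the 4 members with a promoter in that table (Ptgs2, Traf1, Il1a and Il1b), against 7.25% of all promoters. The AP-1 motif TGANTCA was found in Il1a, 12 bases before the start, and in 6.75% of all promoters, and the TATA motif TATAAA was found in Il1a and Il1b, 32 and 31 bases before the start, and in 12.4% of all promoters. The C/EBP motif was also found in Il1a and Il1b, 43 and 91 bases before the start, but not in Traf1. Where a promoter held more than 1 match, the matches did not overlap. Matches describe the letters in this window, and sites farther away were not searched. Cebpb, which encodes a C/EBP factor, had log2 signals of 7.64, 7.57 and 7.41 in siDicer and 7.73, 7.74 and 7.50 in siScr at passages 47, 54 and 56, a difference of -0.12 that did not pass (limma, adjusted p = 0.804).

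Traf1, an adaptor of tumour necrosis factor receptors and itself induced by NF-kB, varied little. Its log2 signal (TC0200003355.mm.1, chromosome 2) was 4.45, 4.47 and 4.51 in siDicer at passages 47, 54 and 56, and 4.46, 4.63 and 4.53 in siScr. The groups overlapped and all 6 values lay within 0.17 log2 units. They lay not far above the dim threshold of 4.15, where a difference between the groups may be hard to detect. Traf1 averaged 4.48 ± 0.028 in siDicer cells and 4.54 ± 0.086 in siScr cells (SD, n = 3). The difference was -0.060 ± 0.060 (standard error, limma, adjusted p = 0.853, and adjusted p = 0.725 with passage as a block). The passages gave -0.0028, -0.16 and -0.019, so passage 54 carried most of it.

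Il1a and Il1b encode the cytokines interleukin-1 alpha and beta and lie next to each other on chromosome 2, with 0 other protein-coding genes between them in the RefSeq table. Both were dim and were left out of the main test. Il1a (TC0200004599.mm.1) had log2 signals of 3.30, 3.45 and 3.26 in siDicer at passages 47, 54 and 56, and 3.29, 3.42 and 3.47 in siScr. Il1b (TC0200004602.mm.1) had 3.26, 3.40 and 3.29 in siDicer, and 3.20, 3.44 and 3.41 in siScr. All 12 values lay under the dim threshold of 4.15, and the groups overlapped for both genes.

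With dim genes kept in the fit, Il1a differed by -0.055 ± 0.072 (standard error, limma, adjusted p = 0.942) and Il1b by -0.035 ± 0.075 (standard error, limma, adjusted p = 0.971). The passages gave 0.0098, 0.036 and -0.21 for Il1a and 0.060, -0.044 and -0.12 for Il1b. At signals this low a difference between the groups may not be detectable on these arrays.

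**Figure D2:**
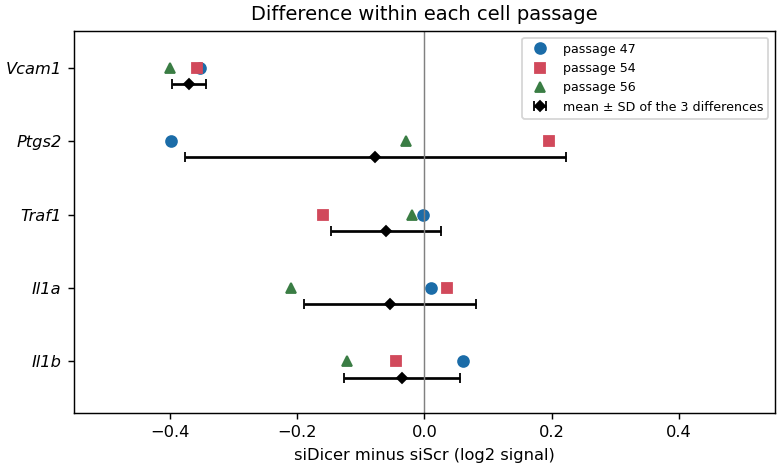
Difference in log2 signal, siDicer minus siScr (horizontal axis), for each member gene at passages 47, 54 and 56, with the mean ± SD of the 3 differences below. The 3 Vcam1 points lie between -0.40 and -0.35, and those of Ptgs2 spread from -0.40 to 0.20 on both sides of 0.

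Vcam1 also differed between passages. Its mean over both groups was 6.51, 7.17 and 6.71 at passages 47, 54 and 56, and the difference between passages passed (limma F-test with the siRNA group in the fit, adjusted p = 0.0145), as it did for 99 tested genes, or 1.85%. Passage 54 lay above the mean of the other two passages by 0.56 in siDicer and by 0.55 in siScr. The call was lost without siDicer replicate 1, siDicer replicate 2, siScr replicate 1 or siScr replicate 2 (limma F-test, adjusted p from 0.086 to 0.0973). It was kept when replicate 3 of siDicer (adjusted p = 0.00577) or of siScr (adjusted p = 0.0050) was dropped from the same limma test. Ptgs2 averaged 4.81, 5.21 and 4.64 at passages 47, 54 and 56 and did not pass (limma F-test, adjusted p = 0.127), and Traf1 averaged 4.46, 4.55 and 4.52 (adjusted p = 0.744 in the same limma test).

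For Vcam1 and for Ptgs2 both arrays of passage 54 lay above the other 4, which was so for 15.4% of tested genes. Passage 54 stands between the other passages in number, so these levels did not follow the order of the passages. A passage is here also a replicate, and what sets the replicates apart beyond the passage number cannot be told apart from it. The siScr array of passage 54, where Vcam1 was highest, had the lowest array weight of the 6 (0.477). The siDicer array of passage 54, where Vcam1 was highest within siDicer, had a weight of 1.45. These weights were set without regard to passage.

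Markers of other cell types were examined beside the passage differences. Of 6 fibroblast markers with a value 4 were tested and 2 differed between passages, Col3a1, a fibrillar collagen (limma F-test, adjusted p = 0.0365), and Ddr2, a collagen receptor (adjusted p = 0.0431 in the same limma test). Ddr2 had log2 signals of 6.00, 7.12 and 6.53 in siDicer and 6.61, 7.24 and 6.60 in siScr at passages 47, 54 and 56, highest at passage 54 like Vcam1. Postn, the matrix protein periostin, was instead highest at passage 47, with 6.09, 5.91 and 5.59 in siDicer and 6.20, 5.56 and 5.30 in siScr, and did not pass (limma F-test, adjusted p = 0.0607). The fourth, the collagen Col5a2, did not pass either (adjusted p = 0.422 in the same limma test). The mean of the fibroblast list ran from 5.19 to 5.49 in siDicer and from 5.24 to 5.49 in siScr. The melanocyte marker Slc24a5 ran the other way, with 10.90, 10.27 and 10.61 in siDicer and 11.20, 10.50 and 10.85 in siScr (limma F-test, adjusted p = 0.0244). Among the others, 1 of 8 tested leukocyte markers (Cd53), 1 of 2 endothelial markers (Eng) and 0 of 3 keratinocyte markers differed between passages. Over all tested genes 99 did, or 1.85%, and this count ran from 14 to 308 with 1 array left out. The marker lists are short, so their counts carry no test. Eng was highest at passage 47, unlike Vcam1, and averaged 8.55, 7.31 and 7.10 at passages 47, 54 and 56 (limma F-test, adjusted p = 0.00296). Cd53 was lowest at passage 47 and averaged 4.27, 4.65 and 4.64. The mean log2 signal of 13 leukocyte markers was 4.15 to 4.16 in siDicer and 4.14 to 4.21 in siScr, and Ptprc, which defines leukocytes, was dim at 2.82 to 2.86 in siDicer and 2.83 to 2.84 in siScr. The means of the other lists were 4.56 to 4.87 in siDicer and 4.57 to 4.75 in siScr for 6 endothelial markers, and 4.57 to 4.64 in siDicer and 4.54 to 4.68 in siScr for 7 keratinocyte markers. In a bulk sample fewer cells of a type and less RNA per cell cannot be told apart. Some markers also lay on one side in siDicer at all 3 passages, as Vcam1 did. Of all tested genes 20% were lower in siDicer at all 3 passages and 16.1% were higher. Slc24a5 differed by -0.30, -0.22 and -0.24 at passages 47, 54 and 56 (mean -0.25, adjusted p = 0.14 in the blocked limma fit), and Ddr2 by -0.61, -0.12 and -0.067 (mean -0.27, adjusted p = 0.335 in the same limma fit). Eng differed by 0.50, 0.22 and 0.16 (mean 0.29, adjusted p = 0.152 in the same limma fit). Smaller differences of one sign at all 3 passages were found for the tested markers Pax3 (-0.12), Cd53 (-0.14), Fcgr3 (-0.040), Col3a1 (-0.050) and Col5a2 (-0.041), none of which passed. Fap, a fibroblast protease, was dim on average and not tested. It had 3.94, 4.05 and 3.85 in siDicer and 4.21, 4.11 and 4.19 in siScr. Its groups did not overlap, as was so for 14.5% of tested genes. The part of these markers in the Vcam1 levels and in the Vcam1 difference was not tested.

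The other genes of the pathway were taken from lists chosen by function. Of 223 listed genes other than the members 80 had a value, 20 of these were dim and 60 were tested. Without the block 0 of the 60 passed with limma, and 2 (F3 and Hax1) had an unadjusted p under 0.05, where 8.52% of all tested genes did. Of the 60 genes 31 were higher and 29 lower in siDicer, with a median difference of 0.0044, and over all tested genes 2439 were higher and 2922 lower, with a median of -0.0093. With passage as a block 1 of the 60 passed, F3, the tissue factor that starts coagulation. It rose by 0.87 (limma, adjusted p = 0.00768), as one of 61 genes that passed as higher in siDicer, or 1.14% of those tested. In the blocked fit 1.73% of all tested genes passed. Without the block F3 did not pass (limma, adjusted p = 0.128). F3 and Vcam1 are both known NF-kB targets and their differences had opposite signs. The cause of either difference was not tested.

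**Figure D3:**
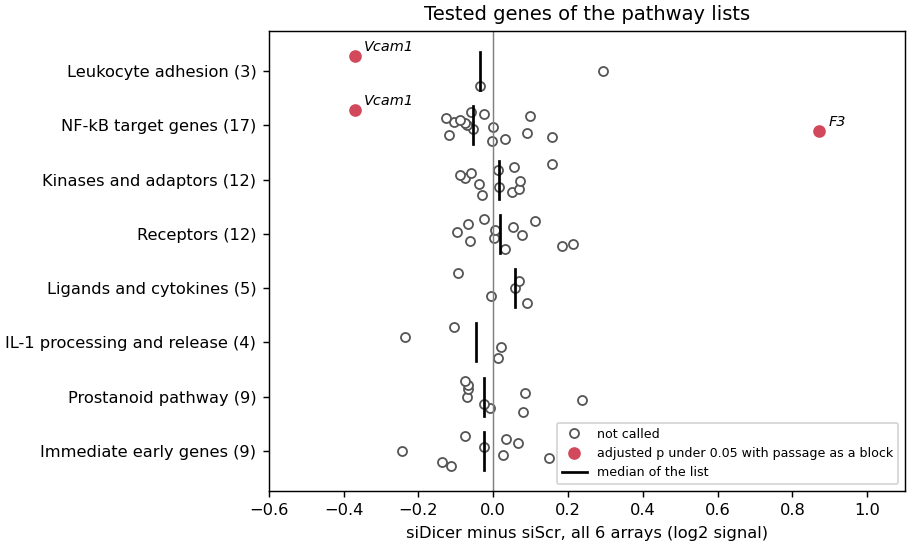
Difference in log2 signal, siDicer minus siScr over all 6 arrays (horizontal axis), of each tested gene of 8 pathway lists, members included, with the list's median as a black bar and the number of tested genes in brackets. Filled points passed with passage as a block, Vcam1 at -0.37 and F3 at 0.87, and a gene can stand in more than 1 list.

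Adhesion molecules came first among the roles, since Vcam1 is one of them. Of 18 listed 6 had a value and 3 were tested. Itga4, the alpha subunit of the integrin that binds Vcam1, had log2 signals of 6.33, 6.80 and 7.38 in siDicer at passages 47, 54 and 56, and 6.17, 6.53 and 6.93 in siScr. Its difference of 0.29 did not pass (limma, adjusted p = 0.847, and adjusted p = 0.116 with passage as a block), and it was higher in siDicer at all 3 passages, as were 16.1% of tested genes. F11r, a junctional adhesion molecule, differed by -0.035 and did not pass. Sele, Selp and Cd34, selectins and a selectin ligand, were dim.

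None of the 11 listed NF-kB subunits and inhibitors was analysed here. Among kinases and adaptors 12 of 47 listed genes were tested, 7 higher and 5 lower in siDicer, and 0 passed with or without the block. Traf6, the ubiquitin ligase that carries the interleukin-1 and Toll-like receptor signal, differed by 0.16 with a standard error of 0.075, and its groups did not overlap, as was so for 14.5% of tested genes (limma, adjusted p = 0.649). Its log2 signals were 7.07, 7.06 and 7.04 in siDicer at passages 47, 54 and 56, and 6.97, 6.77 and 6.98 in siScr. Tifa, an adaptor that activates Traf6, differed by -0.088 and the kinase adaptor Tank by -0.077, neither of which passed.

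Among receptors 12 of 28 listed genes were tested, 8 higher and 4 lower in siDicer, and 0 passed with or without the block. Il1r1, the receptor for interleukin-1, had log2 signals of 5.73, 6.51 and 5.79 in siDicer at passages 47, 54 and 56, and 5.66, 6.12 and 5.61 in siScr. It was higher in siDicer at each passage, by 0.068, 0.39 and 0.18, and did not pass (limma, adjusted p = 0.855, and adjusted p = 0.271 with passage as a block). Tlr5, the receptor for flagellin, differed by -0.096, Tnfrsf4 by 0.11 and Tnfrsf25 by -0.067, and none of these passed.

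Of 40 listed ligands and cytokines 19 had a value and 14 of these were dim, Il1a and Il1b among them, as were Il1rn, the natural blocker of the interleukin-1 receptor, Il10 and Ccl20. The 5 tested were Tnfsf15 (-0.093), Il1f10 (0.058), Il24 (0.068), Csf1 (0.091) and Il12a (-0.0056), and 0 passed with or without the block. Csf1, the growth factor of macrophages, had log2 signals of 7.85, 8.48 and 7.89 in siDicer at passages 47, 54 and 56, and 7.87, 8.35 and 7.72 in siScr.

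Of the 17 tested NF-kB target genes, a list that holds the 3 tested members, 5 were higher and 12 lower in siDicer, with a median of -0.054 against -0.0093 for all tested genes. Apart from Vcam1 and F3 none passed with the block. Cd44, a receptor for hyaluronan, differed by 0.16 and Ptx3, a pentraxin of innate immunity, by -0.10.

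Of 9 tested genes of the prostanoid pathway, Ptgs2 included, 3 were higher and 6 lower, with a median of -0.025, and 0 passed with or without the block. Ptgds, the prostaglandin D synthase, differed by 0.24 and Ptges2, a prostaglandin E synthase, by 0.086. Pla2g4a, the phospholipase that frees arachidonic acid for Ptgs2, is the next protein-coding gene to Ptgs2 on chromosome 1 in the RefSeq table. It had log2 signals of 7.46, 8.26 and 7.79 in siDicer at passages 47, 54 and 56, and 7.64, 8.21 and 7.68 in siScr. Like Ptgs2 it was highest at passage 54 in both groups, and its difference between the groups was -0.0091 (limma, adjusted p = 0.997).

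Of 4 tested genes of interleukin-1 processing and release 2 were higher and 2 lower, and 0 passed with or without the block. Hax1, a protein known to bind the interleukin-1 alpha precursor, differed by -0.24 with a standard error of 0.077, and its groups did not overlap (limma, adjusted p = 0.42). Its log2 signals were 8.43, 8.40 and 8.49 in siDicer at passages 47, 54 and 56, and 8.80, 8.58 and 8.65 in siScr. S100a13, which takes part in interleukin-1 alpha export, differed by -0.11, the protease Capn2 by 0.021 and the DNA sensor Aim2 by 0.013. Of 9 tested immediate early genes 4 were higher and 5 lower, and 0 passed with or without the block. The phosphatase Dusp2 differed by -0.24, the antiproliferative Btg2 by -0.14, the transcription factor Atf3 by -0.11 and Klf4 by -0.076.

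More of these genes passed between passages than between the siRNAs. Of the 60 tested genes other than the members 8 differed between passages, or 13.3%, against 1.85% of all tested genes. These counts depended on single arrays. Without siDicer replicates 1, 2 and 3 in turn 0, 1 and 12 of the 60 differed, against 14, 17 and 260 of all tested genes, and without siScr replicates 1, 2 and 3 in turn 3, 2 and 11 did, against 28, 33 and 308. Of the 8, Itga4 was called in 5 of those 6 fits and the others in 2 or 3. They were Il1r1, Il18rap, Csf1, Itga4, Tnc, Pla2g4a, Aim2 and Ccn1 (limma F-test, adjusted p from 0.0108 to 0.0288), some of them named after their values were seen. Il18rap, a subunit of the interleukin-18 receptor, averaged 5.75, 6.50 and 5.90 at passages 47, 54 and 56, and Tnc, the matrix protein tenascin C, averaged 5.92, 6.48 and 5.78. Ccn1, a matrix-associated early gene, averaged 10.97, 11.53 and 10.70. Both arrays of passage 54 lay above the other 4 for 21 of the 60 genes, or 35%, against 15.4% of all tested genes. The lists themselves were chosen with earlier results of these data known, so these shares describe the lists and carry no test. Itga4 was an exception among the 8, with its highest levels at passage 56 in both groups.

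**Figure D4:**
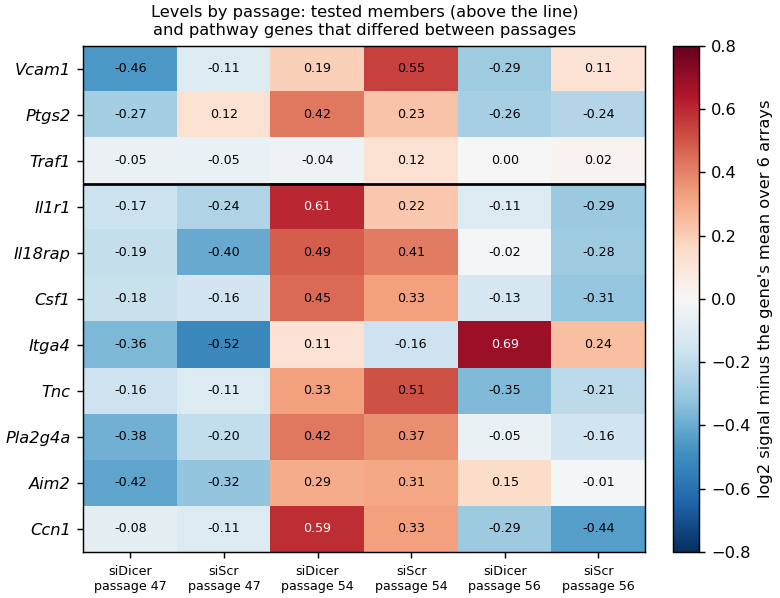
Log2 signal minus the gene's mean over the 6 arrays (colour and printed value) for the tested members Vcam1, Ptgs2 and Traf1 above the line and for the 8 pathway genes that differed between passages below it, with siDicer left of siScr within each passage (horizontal axis). Passage 54 is above the gene's mean in both groups for Vcam1, Ptgs2 and 7 of the 8 genes, and Itga4 is highest at passage 56.

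The genes whose levels ran most like those of Vcam1 over the 6 arrays were Fcnb, a ficolin lectin, Gbp7, a guanylate-binding GTPase, and Gpat2, a glycerol phosphate acyltransferase, with Pearson r of 0.991, 0.985 and 0.984. The 6 arrays share 3 passages and 2 groups, and these values were picked as the highest among all tested protein-coding genes, so they describe the arrays and carry no test. Fcnb spanned 0.30 log2 units and Gpat2 0.22, against 1.01 for Vcam1 and 1.65 for Gbp7. Gbp7 also fell with passage as a block, by 0.58 (limma, adjusted p = 0.0256), and differed between passages (limma F-test, adjusted p = 0.00705). Ptgs2 was most like Ttc24, Tmem82 and the interleukin-36 receptor gene Il1rl2, with r of 0.983, 0.98 and 0.973, and Traf1 most like Neu4, Pamr1 and Lce1h, with r of 0.978, 0.975 and 0.972.

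The nearest tested protein-coding genes beside Vcam1 on chromosome 3 in the RefSeq table did not pass. Extl2 and Slc30a7 on one side differed by 0.26 and -0.017, and Cdc14a and Rtca on the other by -0.14 and -0.10 (limma, adjusted p from 0.232 to 0.987, and adjusted p from 0.093 to 0.953 with passage as a block).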

How the data were processed

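Log2 signals per transcript cluster of Affymetrix Clariom D mouse arrays were used in the form the authors deposited, with array medians of 4.63 to 4.68. The submitters' processing notes name Expression Console and give no version. How the arrays were normalised is not given in the sources used here, and neither are the annotation release and the build. The log2 scale was inferred from values of 1.70 to 13.70, and the centring beyond the medians is unknown. Scanner files were not used here.

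The platform annotation paired 7715 clusters with 1 gene, 270 with several and 8398 with none, and identifiers covered chromosomes 1 to 4. Symbols were updated through the RefSeq gene table (320 changed, 0 unmatched). Each gene kept its cluster of highest mean, and genes under the 30th percentile of mean signal were left out, which left 5361.

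The siDicer and siScr arrays were compared in R 4.3.3 with limma 3.58.1 (eBayes with a trend, two-sided, Benjamini-Hochberg adjustment over all tested genes, threshold 0.05), without and with passage as a block, and passages with an F-test in the fit with siRNA and passage. The fit without the block and the F-test were run on simulated data without passage effects. The fit with the block was not tested on simulated data. The labels give each replicate number 1 passage in both groups, so the numbers pair the samples. Deviations from the group means correlated at 0.42, 0.62 and 0.070 for passages 47, 54 and 56. The design text calls the replicates biological, and nothing says more of their separation. The members, the gene lists and the rule for naming genes (the members, up to 4 genes per list by smallest p, and up to 3 genes most like each tested member) were chosen with earlier results of these data known. F3, Cebpb, Pla2g4a, Il12a, Il18rap, Tnc, Ccn1 and the dim genes, markers and neighbours named were added after values were seen.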

Additional observations from a re-analysis of the deposited data

How the results depend on the processing

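Over the other settings without the block (normalisation, filter, weights, trend, choice of cluster and each array left out), the Vcam1 difference stayed negative and did not pass (limma, adjusted p from 0.54 to 0.857), and with 1 array left out its lowest value was -0.56 (siDicer replicate 2 dropped) and its highest -0.19 (siScr replicate 2 dropped). With array weights it was -0.20. With the replicate block it was -0.37 (limma, adjusted p = 0.033), which made 1 member called, and without passage 56 in that fit it was -0.35, again 1 member. The block changed no other call among the members. The blocked fits without 1 passage or with dim genes were chosen after seeing the data. Without the block 1 gene passed in all, with a range of 0 to 2 with 1 array left out, and 14 passed with array weights and 93 with the replicate block. Of the blocked fits, 22 genes passed with dim genes kept in, and 5, 19 and 153 passed without passages 47, 54 and 56. The count of genes that differed between passages, 99, was 202 with arrays centred on the median, 58 with dim genes kept in, 172 with a filter at the 50th percentile, 165 with array weights, 55 over all transcript clusters, and 14 to 308 with 1 array left out. The Vcam1 adjusted p of that F-test (limma) ran from 0.0050 to 0.0973 with 1 array left out. Ptgs2 ran from -0.31 to 0.041 with 1 array left out (positive at 0.041 and 0.036 when siDicer replicates 1 and 3 were dropped and at 0.017 when siScr replicate 2 was), and turned to 0.11 with array weights and 0.083 with the replicate block without passage 47. Traf1 was at -0.16 within passage 54 and ran from -0.10 to -0.015 with 1 array left out, and Il1a was at -0.21 within passage 56. Causes of these shifts were not tested, and without the block leaving out 1 array also brings passage differences into the siRNA difference. The number of arrays limits the precision, and no measure of signal over background was at hand.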
